A study of Mus musculus with 6 samples.

Results

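The collagen family was taken as every row of the deposited table whose gene symbol reads Col, a number, the letter a and a number, which gave 43 of 56691 genes after Col17a1, a transmembrane collagen of hemidesmosomes, was left out. Of these, 28 genes had 30 or more counts summed over all libraries and are called measured here, and 15 had between 1 and 28. Messenger RNA was sequenced from mouse bone marrow-derived macrophages, whose cell type label reads bone marrow cells. All of them had been induced with M-CSF, the growth factor that drives marrow cells to become macrophages, and were sorted after culture with mEC25, which the series names as a cancer line. The 3 contact libraries come from macrophages that touched the mEC25 cells, and the 3 transwell libraries from macrophages that shared only their medium across a membrane. The comparison asks how direct contact changes macrophage transcripts beyond indirect co-culture. The labels give neither mouse strain, sex nor age, nor the sort gate, and mEC25 cells grown alone were not analysed here.

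Collagens are secreted or membrane-bound proteins whose chains wind around each other over stretches of repeated glycine-X-Y residues. Fibril-forming collagens make the load-bearing fibers of connective tissue, type IV collagens the sheet-like network of basement membranes, and FACIT collagens (fibril-associated collagens with interrupted helices) sit on or near fibrils. Fibroblasts are the main makers of fibrillar collagen and epithelial cells of type VII, and macrophages are better known for taking up and degrading collagen, although they can express several members. Before secretion the chains are hydroxylated, glycosylated and folded in the endoplasmic reticulum, and afterwards they are trimmed and cross-linked.

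Library totals lay between 20911880 and 22563835 counts in contact and between 18173192 and 18895818 in transwell libraries. No label ties a replicate to its own culture or mouse, and the p-values therefore reflect variation among these libraries, which could be technical. Levels are given as FPKM, the authors' counts scaled by exon length and library total. Of 12 macrophage markers, all were tested, and 3 rose and 5 fell in the test given below. Over all 14113 genes tested, 21.4% were higher and 16.1% lower in contact, which is also the background of the other marker lists. The macrophage markers summed to between 15211 and 16977 FPKM in contact and between 17230 and 18366 FPKM in transwell libraries, most of it Lyz2. The defining markers were present in every library and differed between groups. Adgre1 averaged 578 ± 57.1 FPKM in contact, against 1228 ± 83.7 FPKM in transwell libraries, Cd68 588 ± 43.1 FPKM in contact, against 879 ± 50.7 FPKM in transwell libraries, and Csf1r 373 ± 26.3 FPKM in contact, against 284 ± 9.20 FPKM in transwell libraries. Of these, Adgre1 and Cd68 fell and Csf1r rose. Epithelial markers moved with the groups. Of 20, 17 were tested and 16 rose, and their sum was 1110, 1681 and 956 FPKM in contact replicates 1, 2 and 3 and between 5 and 5.58 FPKM in transwell libraries, where the defining marker Epcam was listed at 0 in 2 of 3 libraries. Most of the transwell sum was Sfn, at 4.40, 3.68 and 4.04 FPKM in transwell replicates 1, 2 and 3. Apart from Sfn and Pkp3, each marker that rose had 20 or fewer transwell counts in all. These passed the filter on low counts through contact libraries alone, so a result other than a rise was hardly possible. Of 14 fibroblast markers without collagens, 9 were tested and 6 rose, while Dcn, Thy1 and Fap did not pass the threshold. They summed to between 6.44 and 10.48 FPKM in contact and between 1.01 and 1.80 FPKM in transwell libraries. The largest part in contact was Fbln2, with a mean of 3.94 FPKM in contact and 0.193 FPKM in transwell libraries. Fbln1 and Twist1, which rose, had 3 transwell counts each and passed the filter on low counts through contact libraries alone. Of the defining markers Pdgfra, Pdgfrb, Dcn and Lum, only Pdgfrb rose (mean 0.890 FPKM in contact, 0.250 FPKM in transwell libraries). Dcn was not called (edgeR adjusted p = 0.455), and Pdgfra and Lum were too low to be tested. Lum was listed at 0 in transwell replicate 1. Mural and smooth muscle markers summed to between 8.13 and 14.43 FPKM in contact and between 5.21 and 8.41 FPKM in transwell libraries, and endothelial markers to between 2.14 and 2.88 FPKM in contact and between 1.79 and 2.27 FPKM in transwell libraries. Of 8 mural markers, 3 were tested, and Acta2 and Cspg4 rose. Of 10 endothelial markers, 6 were tested, 3 rose and Vwf, the largest part of their sum, fell. The rises were Cdh5 (mean 0.393 FPKM in contact, 0.12 FPKM in transwell libraries), Kdr (0.28 FPKM in contact, 0.103 FPKM in transwell libraries) and Egfl7. Cspg4, Cdh5 and Egfl7, with 4, 28 and 20 transwell counts, passed the filter on low counts through contact libraries alone. Mitochondrial genes took 1.78 ± 0.0392% of the counts of contact libraries and 1.14 ± 0.187% of those of transwell libraries (SD over 3 libraries). The part that such cells or RNA quality have in the collagen results was not tested.

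Collagen transcripts were more abundant in contact than in transwell libraries, and each structural class with a tested gene held at least 1 that rose. The 43 genes together took 9208, 7067 and 4902 counts in contact replicates 1, 2 and 3, against 2453, 1492 and 1448 in transwell replicates 1, 2 and 3. Their share was 0.0322 ± 0.00946% of the reads counted in contact libraries and 0.00966 ± 0.00288% of those in transwell libraries (SD, n = 3 each), with no overlap between the groups. In bulk RNA, more cells of one type and more RNA per cell cannot be told apart. In edgeR's quasi-likelihood test over 14113 genes, adjusted by Benjamini-Hochberg and read at a threshold of 0.05, 24 collagen genes had enough counts to be tested. Of these, 21 rose, Col19a1 fell, and Col20a1 and Col9a3 did not pass the threshold. Over all genes tested, 21.4% were higher and 16.1% lower in contact. All 21 rises were at least 2-fold, which 11.8% of all genes reached, and lay between 2.38-fold and 17.7-fold. Values did not overlap between groups for 23 of the 24, 21 with contact above and 2 with contact below. Over all genes tested, 51.6% had groups that did not overlap and 36.1% had every contact library above. The median log2 change was 1.93 over the 24 collagen genes and 0.03 over all genes tested. A gene that passed the filter on low counts only through contact libraries had to differ. The 18 members with 10 or more counts in every transwell library were therefore also counted, and 15 of them rose and 1 fell. The share over all genes at that minimum was not taken, so these counts have no background beside them. The tested members outside the 18 were Col4a3, Col4a4, Col4a5, Col8a1, Col15a1 and Col16a1. All of them were called higher, and their calls carry that limit. The 21 rises remained calls with replicate 1 left out of both groups, a choice made after the values were seen.

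**Figure D1:**
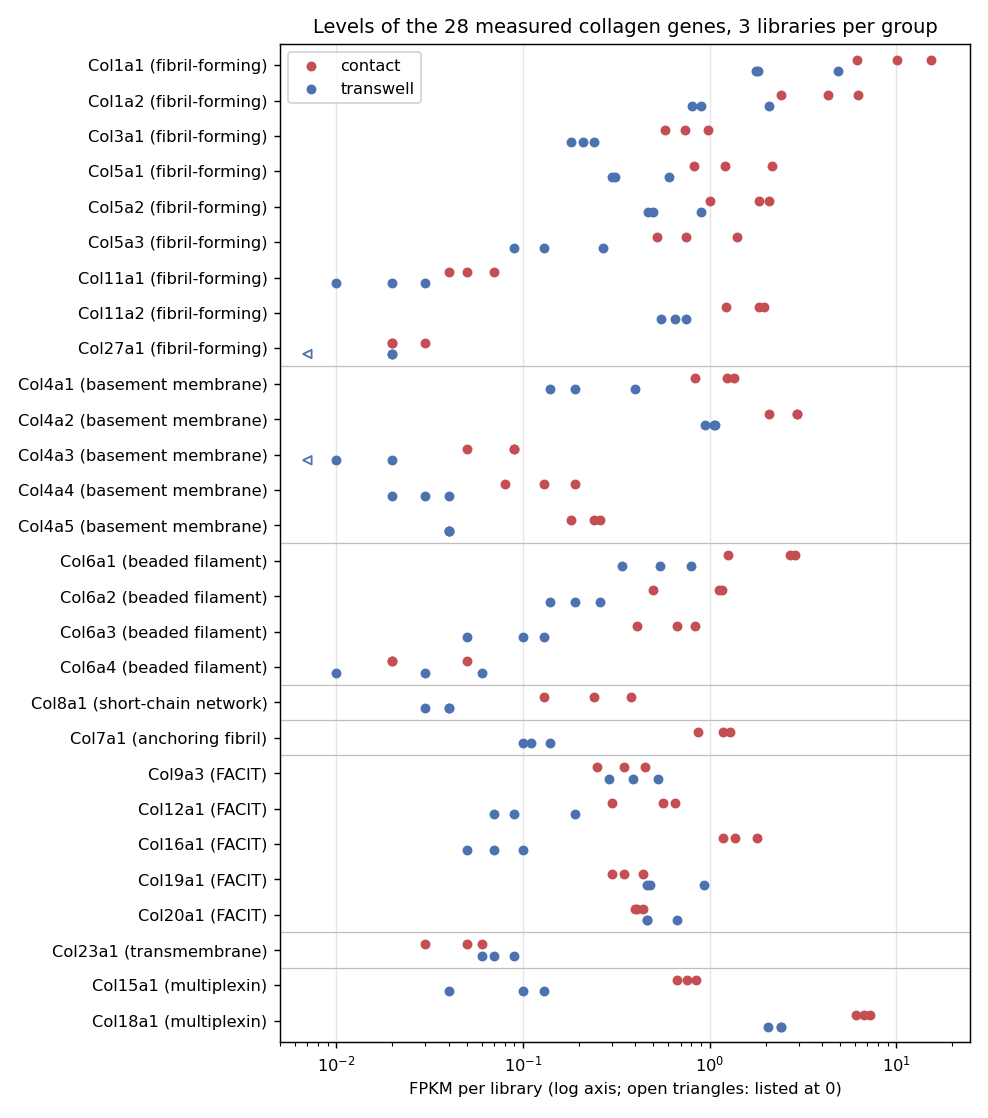
FPKM of the 28 measured collagen genes in each of 3 contact (red) and 3 transwell (blue) libraries on a log axis, 1 point per library, grouped by structural class. Contact points lie to the right of transwell points for the fibril-forming, basement membrane and type VI genes that were tested, while Col9a3, Col19a1 and Col20a1 lie level or to the left.

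**Figure D2:**
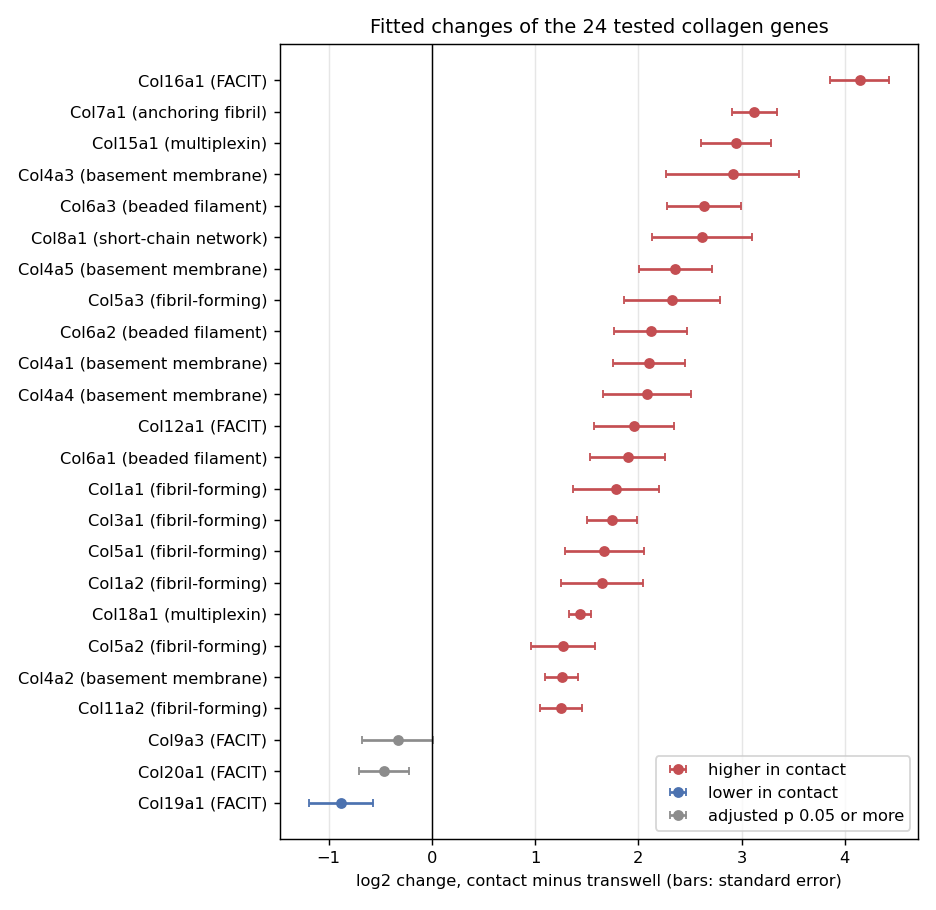
Log2 change of the 24 tested collagen genes, contact minus transwell, with standard errors from edgeR's quasi-likelihood test. Col16a1 stands at 4.15, 20 further genes between 1.25 and 3.13, and Col9a3, Col20a1 and Col19a1 below 0.

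Fibril-forming collagens were led by type I, the main fibrillar collagen of bone, skin and tendon. Col1a1 (ENSMUSG00000001506, chromosome 11, 94936224 to 94953042 on GRCm38) stood at 15.35, 10.06 and 6.20 FPKM in contact replicates 1, 2 and 3, against 4.86, 1.78 and 1.82 FPKM in transwell replicates 1, 2 and 3. The lowest contact library was above the highest transwell library, and replicate 1 was the highest of each group. The fitted log2 change was 1.78 ± 0.42 (SE, edgeR adjusted p = 0.00796), a 3.44-fold rise that became 5.43-fold without transwell replicate 1. Its partner chain Col1a2 (chromosome 6, 4504814 to 4541544) stood at 6.21, 4.33 and 2.42 FPKM in contact, against 2.08, 0.81 and 0.90 FPKM in transwell libraries, and rose 3.14-fold (log2 change 1.65 ± 0.40, adjusted p = 0.00914). The same library was again the highest of each group.

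The promoter of Col1a2 is shown as that of a type I chain, from 250 bases before to 50 after the RefSeq start on GRCm38.p6 (chr6:4505368-4505667, plus strand). Capitals here and below mark matches on either strand to the CCAAT box (CCAAT, or ATTGG in reverse), the GC box (GGGCGG, or CCGCCC in reverse), the TATA box (TATAAA) and the AP-1 motif (TGANTCA, N being any base), and no 2 marked matches overlap. Col1a2 held 2 CCAAT and 2 GC boxes and no TATAAA in this window.
Col1a2: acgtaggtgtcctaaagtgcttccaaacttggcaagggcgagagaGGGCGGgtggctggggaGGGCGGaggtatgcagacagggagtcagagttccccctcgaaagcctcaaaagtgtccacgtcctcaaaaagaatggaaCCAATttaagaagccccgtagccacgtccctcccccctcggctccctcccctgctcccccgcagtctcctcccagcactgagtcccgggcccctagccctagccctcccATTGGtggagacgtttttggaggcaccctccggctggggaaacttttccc

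All 7 fibril-forming genes that were tested rose. Col3a1, the chain of type III collagen of extensible tissues, stood at 0.98, 0.74 and 0.58 FPKM in contact, against 0.24, 0.21 and 0.18 FPKM in transwell libraries (log2 change 1.75 ± 0.24, adjusted p = 3.73e-04). Type V chains, which join type I fibrils and limit their diameter, rose as well. Col5a1 stood at 2.17, 1.21 and 0.83 FPKM in contact, against 0.61, 0.30 and 0.31 FPKM in transwell libraries (1.67 ± 0.38, adjusted p = 0.00732). Col5a2, which lies 24614 bases from Col3a1 on chromosome 1, stood at 2.07, 1.85 and 1 FPKM in contact, against 0.90, 0.47 and 0.50 FPKM in transwell libraries (1.27 ± 0.31, adjusted p = 0.00970). In each of these genes replicate 1 was the highest library of its group and the groups did not overlap. Col5a3 stood at 1.40, 0.75 and 0.52 FPKM in contact, against 0.27, 0.13 and 0.09 FPKM in transwell libraries, and rose 5.02-fold (2.33 ± 0.47, adjusted p = 0.00348), or 7.61-fold without transwell replicate 1. Col11a2, a type XI chain best known from cartilage, stood at 1.95, 1.85 and 1.23 FPKM in contact, against 0.75, 0.65 and 0.55 FPKM in transwell libraries, and rose 2.38-fold (1.25 ± 0.21, adjusted p = 0.00108). Its partner Col11a1, with 44 counts in contact and 13 in transwell libraries, and Col27a1, with 20 in contact and 10 in transwell libraries, were measured but too low to be tested.

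Basement membrane collagen genes rose in all 5 tested cases, with log2 changes between 1.26 and 2.92. Col4a3, Col4a4 and Col4a5 passed the filter on low counts through contact libraries alone, so for them a result other than a rise was hardly possible. Col4a1 and Col4a2 encode the chains found in nearly every basement membrane. Col4a2 (ENSMUSG00000031503, chromosome 8, 11312805 to 11449287 on GRCm38) stood at 2.94, 2.95 and 2.07 FPKM in contact, against 1.06, 0.94 and 1.07 FPKM in transwell libraries (log2 change 1.26 ± 0.16, adjusted p = 1.96e-04). Col4a1 (chromosome 8, 11198423 to 11312826) stood at 1.24, 1.36 and 0.84 FPKM in contact, against 0.40, 0.14 and 0.19 FPKM in transwell libraries (2.1 ± 0.35, adjusted p = 0.00109). Transwell replicate 1 was the highest of its group for Col4a1, while the transwell libraries lay close together for Col4a2.

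These genes run in opposite directions from starts that overlap by 22 bases in GENCODE M21, and reads of those bases may be counted for either. Their promoter windows are shown because they overlap each other and both genes rose. Col4a2 is read on the plus strand (chr8:11312555-11312854) and Col4a1 on the minus strand (chr8:11312777-11313076). Both held CCAAT and GC boxes, 1 and 3 in Col4a2 and 1 and 1 in Col4a1, and neither held TATAAA or TGANTCA. The GC box of Col4a1 is the same site as the last GC box of Col4a2, read on the other strand.
Col4a2: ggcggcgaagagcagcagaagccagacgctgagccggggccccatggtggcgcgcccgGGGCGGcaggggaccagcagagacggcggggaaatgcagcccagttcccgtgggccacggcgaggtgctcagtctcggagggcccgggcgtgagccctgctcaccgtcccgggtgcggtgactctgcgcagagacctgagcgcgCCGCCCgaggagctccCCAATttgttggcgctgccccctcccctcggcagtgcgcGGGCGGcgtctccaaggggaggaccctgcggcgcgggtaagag
Col4a1: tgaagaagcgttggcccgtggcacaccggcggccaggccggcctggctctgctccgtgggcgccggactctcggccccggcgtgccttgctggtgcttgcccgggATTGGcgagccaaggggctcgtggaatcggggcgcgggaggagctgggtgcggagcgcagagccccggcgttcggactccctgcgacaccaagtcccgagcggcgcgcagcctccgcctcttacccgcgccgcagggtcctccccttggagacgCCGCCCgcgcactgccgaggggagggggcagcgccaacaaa

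Col4a3, Col4a4 and Col4a5, the chains of the kidney glomerular network, were near the limit of detection. Col4a5 stood at 0.18, 0.26 and 0.24 FPKM in contact and at 0.04 FPKM in each transwell library (log2 change 2.36 ± 0.35, adjusted p = 6.00e-04). Col4a4 stood at 0.13, 0.19 and 0.08 FPKM in contact, against 0.03, 0.02 and 0.04 FPKM in transwell libraries (2.08 ± 0.43, adjusted p = 0.00396). Col4a3 had 20, 19 and 12 counts in contact, against 0, 3 and 2 in transwell libraries (2.92 ± 0.64, adjusted p = 0.00592). Its log2 change was 3.58 without transwell replicate 2 and 2.24 without replicate 1 in both groups. The calls of Col4a3 and Col4a4 ended in limma on log2(FPKM + 1), a scale that shrinks changes of low genes. Col4a3 and Col4a4 also start back to back, 71 bases apart on chromosome 1. Col4a5 and Col4a6 start 1308 bases apart on chromosome X, and Col4a6, with 6 counts in contact and 2 in transwell libraries, was not measured.

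The type VI chains, which form beaded filaments in the matrix around cells, rose together. Col6a1 (chromosome 10, 76708792 to 76726168) stood at 2.87, 2.69 and 1.25 FPKM in contact, against 0.80, 0.34 and 0.54 FPKM in transwell libraries (log2 change 1.90 ± 0.37, adjusted p = 0.00272). Col6a2, 85161 bases away, stood at 1.12, 1.16 and 0.50 FPKM in contact, against 0.26, 0.19 and 0.14 FPKM in transwell libraries (2.12 ± 0.35, adjusted p = 0.00116). Col6a3 stood at 0.84, 0.67 and 0.41 FPKM in contact, against 0.13, 0.10 and 0.05 FPKM in transwell libraries (2.64 ± 0.36, adjusted p = 3.33e-04). Contact replicate 3 was the lowest contact library for all of them and still above every transwell library. Col6a4 had 16 counts in contact and 15 in transwell libraries and was not tested, and Col6a5, Col6a6 and Col28a1, with 6, 4 and 10 counts in all, were not measured. Col8a1, of the short-chain type VIII collagen that forms lattices in vessel walls and the cornea, stood at 0.24, 0.38 and 0.13 FPKM in contact, against 0.04, 0.04 and 0.03 FPKM in transwell libraries (2.62 ± 0.49, adjusted p = 0.00220).

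Col16a1 had the largest fitted change of the family in edgeR, and Col7a1 was next, within its standard error of Col15a1 and Col4a3. Of these, Col16a1, Col15a1 and Col4a3 passed the filter on low counts only through contact libraries. On log2(FPKM + 1) in limma, which shrinks changes of low genes, Col1a1 (1.61), Col1a2 (1.21) and Col18a1 (1.23) exceeded Col16a1 (1.18). Col7a1 (ENSMUSG00000025650, chromosome 9, 108953586 to 108984875) encodes the anchoring fibrils that tie squamous epithelium to the tissue below and is made largely by keratinocytes. It stood at 1.18, 1.28 and 0.87 FPKM in contact, against 0.10, 0.11 and 0.14 FPKM in transwell libraries, an 8.73-fold rise (log2 change 3.13 ± 0.22, adjusted p = 4.98e-06). Col16a1 (ENSMUSG00000040690, chromosome 4, 130047840 to 130099283), a FACIT collagen of skin and cartilage, stood at 1.37, 1.79 and 1.18 FPKM in contact, against 0.10, 0.05 and 0.07 FPKM in transwell libraries, a 17.7-fold rise (4.15 ± 0.29, adjusted p = 4.97e-06). Both were highest in contact replicate 2 and lowest in contact replicate 3, the order of the summed epithelial markers. The same held for Col4a1, Col4a2, Col4a3, Col4a4, Col6a2, Col8a1 and Col18a1, and 62.8% of all 3016 genes that rose were highest in contact replicate 2. The windows of both genes, shown as those of the largest changes in edgeR, each held a CCAAT box, with 1 GC box in Col7a1 (chr9:108953336-108953635, plus strand) and 2 in Col16a1 (chr4:130047590-130047889, plus strand).
Col7a1: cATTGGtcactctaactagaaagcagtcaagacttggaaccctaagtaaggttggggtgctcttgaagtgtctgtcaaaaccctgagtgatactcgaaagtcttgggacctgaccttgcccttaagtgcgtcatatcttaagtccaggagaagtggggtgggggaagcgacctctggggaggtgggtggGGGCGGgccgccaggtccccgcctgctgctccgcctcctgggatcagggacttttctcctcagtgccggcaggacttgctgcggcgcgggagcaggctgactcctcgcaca
Col16a1: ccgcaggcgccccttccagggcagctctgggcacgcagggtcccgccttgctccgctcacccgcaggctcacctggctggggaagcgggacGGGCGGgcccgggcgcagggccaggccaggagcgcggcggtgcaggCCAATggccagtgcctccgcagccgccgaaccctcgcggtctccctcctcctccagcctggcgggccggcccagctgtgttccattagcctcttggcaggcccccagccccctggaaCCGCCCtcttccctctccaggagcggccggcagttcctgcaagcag

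A promoter was at hand for 34 of the 43 genes, 37 windows in all since some genes have several starts. Of these windows 23 held a GC box, 12 a CCAAT box, 4 TATAAA and 1, that of Col6a1, TGANTCA. The GC box that the Col4a1 and Col4a2 windows share is counted for each of them. Over all 32851 promoters of the same length, 35.7% held a GC box, 37.4% a CCAAT box, 13.6% TATAAA and 7.81% TGANTCA. The median GC content was 60% in collagen windows and 52.7% in all windows. These are matches of letters in short windows and do not show that a factor binds.

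The other FACIT genes did not share one direction. Col12a1, which decorates type I fibrils, stood at 0.65, 0.56 and 0.30 FPKM in contact, against 0.19, 0.09 and 0.07 FPKM in transwell libraries (log2 change 1.96 ± 0.39, adjusted p = 0.00329). Col19a1 was the only collagen gene to fall, at 0.35, 0.30 and 0.44 FPKM in contact, against 0.46, 0.93 and 0.48 FPKM in transwell libraries (-0.88 ± 0.31, adjusted p = 0.0487). The groups were close to each other apart from transwell replicate 2, and the call was lost when any contact library was left out (log2 change between -1.04 and -0.75) and without transwell replicate 2 (-0.51). Col20a1 stood at 0.44, 0.40 and 0.41 FPKM in contact, against 0.46, 0.67 and 0.46 FPKM in transwell libraries (-0.46 ± 0.24, adjusted p = 0.169), and shares 79 exonic bases with a gene on the same strand, BX649560.1, that had 898 counts. Col9a3, a type IX cartilage chain, stood at 0.35, 0.45 and 0.25 FPKM in contact, against 0.29, 0.39 and 0.53 FPKM in transwell libraries (-0.33 ± 0.34, adjusted p = 0.487), and its groups overlapped.

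The multiplexins Col15a1 and Col18a1 encode collagens with sugar chains that lie along basement membranes, and a fragment of the Col18a1 protein is the angiogenesis inhibitor endostatin. Col18a1 (ENSMUSG00000001435, chromosome 10, 77052178 to 77166548) varied little within groups, at 6.73, 7.28 and 6.11 FPKM in contact, against 2.41, 2.40 and 2.05 FPKM in transwell libraries. The highest contact library was 1.19 times the lowest and the highest transwell library 1.18 times the lowest, while Col1a1 varied 2.48 times among contact and 2.74 times among transwell libraries. The fitted rise of Col18a1 was 2.71-fold (log2 change 1.44 ± 0.10, adjusted p = 6.42e-06). Col15a1 stood at 0.85, 0.67 and 0.76 FPKM in contact, against 0.10, 0.04 and 0.13 FPKM in transwell libraries (2.94 ± 0.34, adjusted p = 1.11e-04).

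The members that were not measured were spread over the classes. Besides those already given they were Col2a1, Col8a2, Col9a1, Col9a2, Col10a1, Col13a1, Col14a1, Col22a1, Col24a1, Col25a1 and Col26a1. None exceeded 0.05 FPKM in any library. Col25a1, a neuronal transmembrane collagen, had 16 counts in contact and 1 in transwell libraries, and Col14a1, a FACIT member of skin and tendon, had 14 in each group. Col8a2 and Col26a1 had no contact count, and Col6a5 and Col13a1 no transwell count. The transmembrane gene Col23a1 was measured with 17 counts in contact and 23 in transwell libraries and was not tested. All of these lay below the depth at which the test was run.

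Fibril-forming genes were the largest class in every library. Of the summed collagen FPKM, fibril-forming genes held 50.2 ± 7.03% in contact libraries and 46.2 ± 10.3% in transwell libraries (SD, n = 3 each). Basement membrane genes made up 10.5 ± 1.42% in contact and 10.8 ± 1.87% in transwell libraries, and multiplexins 18.9 ± 4.66% in contact and 19.1 ± 3.67% in transwell libraries. These shares differed by less than the spread between replicates. FACIT genes held 7.81 ± 1.45% in contact and 14.8 ± 5.28% in transwell libraries, and Col7a1 alone 2.74 ± 0.411% in contact and 0.966 ± 0.361% in transwell libraries. Col1a1, Col18a1, Col1a2 and Col4a2 ranked 1, 2, 3 and 4 by mean share in contact and also in transwell libraries. Col16a1 ranked 8 in contact and 21 in transwell libraries, with 3.61 ± 0.846% of collagen FPKM in contact and 0.567 ± 0.108% in transwell libraries.

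**Figure D3:**
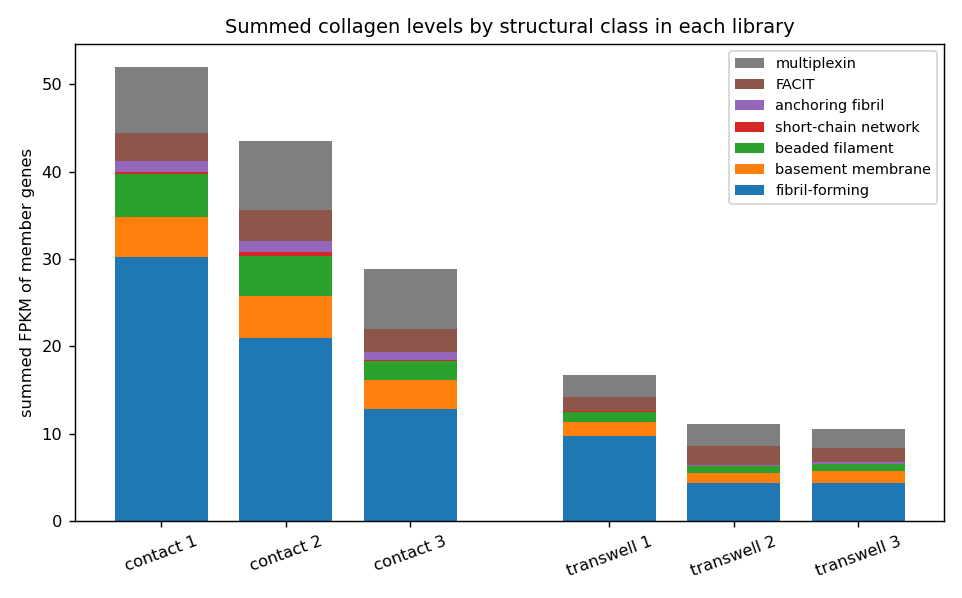
Summed FPKM of the collagen genes in each library, stacked by structural class, with 3 contact libraries on the left and 3 transwell libraries on the right. Bars reach 52.1, 43.6 and 28.9 FPKM in contact replicates 1, 2 and 3 and 16.8, 11.2 and 10.6 FPKM in transwell replicates 1, 2 and 3, and fibril-forming genes are the largest class in each.

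The proportion of chains of the same collagen type overlapped between groups for most pairs compared here, and did not for Col4a1 and Col4a2. The ratio of Col1a1 to Col1a2, per length, was 2.47, 2.32 and 2.56 in contact, against 2.33, 2.19 and 2.02 in transwell libraries, which overlap. The ratio of Col4a1 to Col4a2 was 0.422, 0.461 and 0.405 in contact, against 0.376, 0.149 and 0.181 in transwell libraries. It was higher in every contact library, but transwell replicate 1 lay closer to the contact libraries than to its own group. The ratio of Col4a5 to Col4a1 was 0.144, 0.194 and 0.288 in contact, against 0.0992, 0.292 and 0.206 in transwell libraries, and that of Col4a4 to Col4a3 was 1.46, 2.08 and 1.57 in contact, against 1.25 and 3.29 in transwell replicates 2 and 3. Both overlap. Col4a3 had no count in transwell replicate 1, which gives no ratio. Col6a1 to Col6a2 stood at 2.56, 2.31 and 2.49 in contact, against 3.06, 1.83 and 3.80 in transwell libraries, which overlap. With 3 libraries a side an exact permutation test of such a ratio cannot go below p = 0.10, so none was run.

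Collagen genes differed in which library of a group was highest. All 7 tested fibril-forming genes were highest in contact replicate 1 and in transwell replicate 1. Of the other 14 genes that rose, 10 were highest in contact replicate 2 and 4 in contact replicate 1. Over all 3016 genes that rose, 62.8% were highest in contact replicate 2 and 19.9% in contact replicate 1, and all 16 epithelial markers that rose were highest in contact replicate 2. Among transwell libraries, 35.1% of these 3016 genes were highest in replicate 1 and 36.7% in replicate 2. Of the 6 fibroblast markers that rose, 3 were highest in contact replicate 1 and 3 in contact replicate 2, and 4 were highest in transwell replicate 1 and 2 in transwell replicate 2. Which cells the reads came from was not tested.

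**Figure D4:**
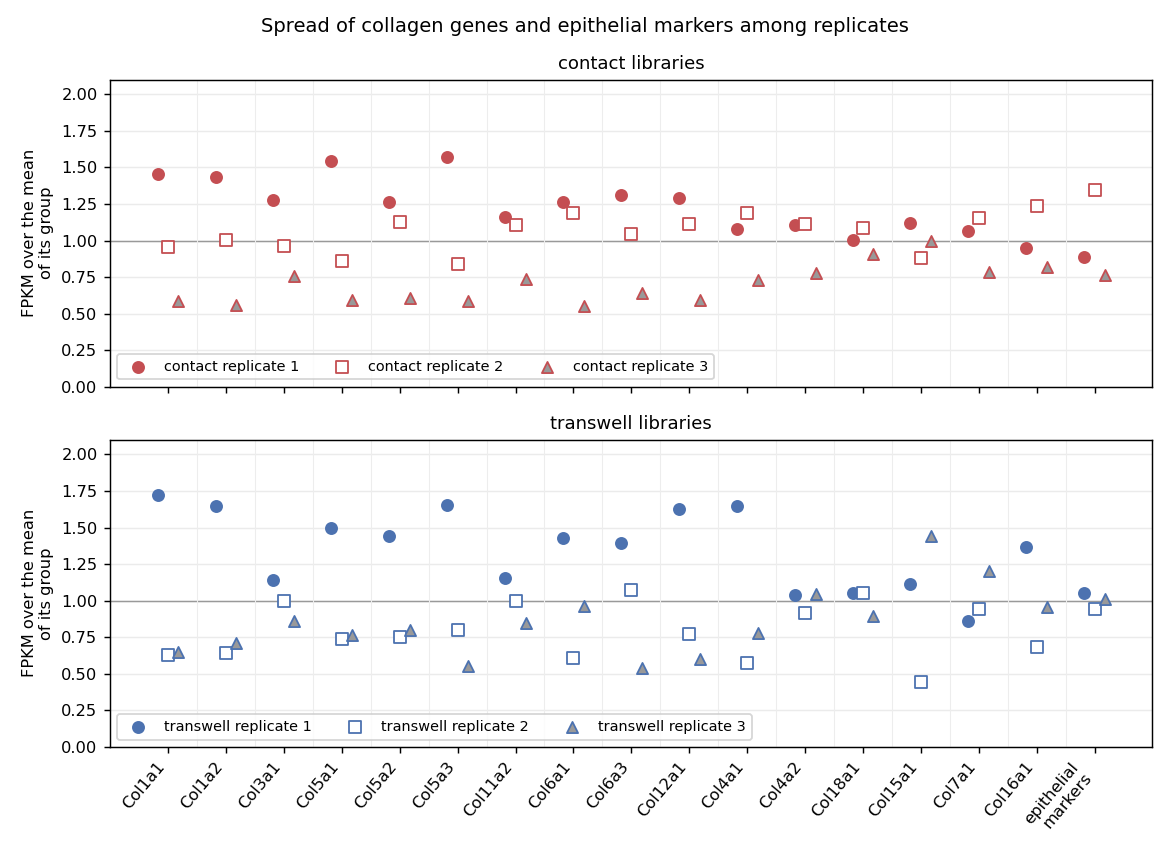
FPKM of 16 collagen genes, and the summed FPKM of 20 epithelial markers, relative to the mean of the 3 libraries of each group, with contact libraries in the upper panel and transwell libraries in the lower. Type I and type V genes are highest in replicate 1 of both groups, while Col4a1, Col4a2, Col18a1, Col7a1, Col16a1 and the epithelial markers are highest in contact replicate 2.

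Genes for collagen modification and folding did not move in a single direction. Of 20 genes, 18 were tested, 6 rose, 7 fell and 5 did not pass the threshold, with a median log2 change close to 0. The rises include P3h2 and P3h4, with 3 and 20 transwell counts in all. Both passed the filter on low counts through contact libraries alone, so a fall was hardly possible. Among all genes tested, 21.4% rose and 16.1% fell. P4hb, a subunit of prolyl 4-hydroxylase and a general disulfide isomerase, averaged 229 ± 2.31 FPKM in contact libraries and 325 ± 23.0 FPKM in transwell libraries (SD, n = 3 each) and fell (-0.62 ± 0.07, adjusted p = 1.37e-04). The catalytic subunit P4ha1 fell by 0.28 on the log2 scale (mean 41.4 ± 2.24 FPKM in contact, 46.3 ± 1.20 FPKM in transwell), a call lost when contact replicate 2 (-0.22) or transwell replicate 3 (-0.26) was left out. Among all alternative fits the P4ha1 call was lost in 6 of 19, among them scaling by library totals alone (-0.16) and each limma fit on FPKM. The lysyl hydroxylase Plod1 stood at 20.9 ± 2.02 FPKM in contact and 31.8 ± 1.49 FPKM in transwell libraries (-0.72 ± 0.09, adjusted p = 1.68e-04). Plod2, the lysyl hydroxylase that acts on the ends of fibrillar chains, went the other way, at 1.26 ± 0.164 FPKM in contact and 0.147 ± 0.0493 FPKM in transwell libraries (2.98 ± 0.27, adjusted p = 2.75e-05).

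Serpinh1, which encodes the collagen chaperone HSP47, stood at 6.51, 4.70 and 3.01 FPKM in contact, against 2.58, 1.04 and 0.93 FPKM in transwell libraries (log2 change 1.52 ± 0.40, adjusted p = 0.0131). Replicate 1 was the highest of each group, as for type I collagen. The Serpinh1 call was lost when contact replicate 1 (1.22) or transwell replicate 3 (1.26) was left out, and the change was 2.16 without transwell replicate 1. Fkbp10, a procollagen chaperone and isomerase, stood at 3.43, 3.39 and 1.90 FPKM in contact, against 0.81, 0.34 and 0.13 FPKM in transwell libraries, and rose 6.24-fold (2.64 ± 0.48, adjusted p = 0.00194), or 11.5-fold without transwell replicate 1. P3h4, a partner in collagen lysyl hydroxylation, stood at 5.29, 6.81 and 4.22 FPKM in contact, against 0.32, 0.10 and 0.07 FPKM in transwell libraries (4.90 ± 0.39, adjusted p = 1.08e-05), and its log2 change was 5.80 without transwell replicate 1. The P3h4 call carries the limit of the filter given above.

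Cross-linking genes also split. Of 13 genes for procollagen cleavage and cross-linking, 9 were tested, 5 rose and 2 fell, with a median log2 change of 1.19. The rises include Loxl4 and Pcolce2, with 3 and 7 transwell counts in all. Both passed the filter on low counts through contact libraries alone, and their calls and the median carry that limit. Among all genes tested, 21.4% rose and 16.1% fell, with a median of 0.03. Lox, the lysyl oxidase that starts collagen cross-links, stood at 5.05, 4.22 and 4.91 FPKM in contact, against 12.15, 15.65 and 13.83 FPKM in transwell libraries, and fell (-1.67 ± 0.12, adjusted p = 5.08e-06). Loxl3, a related oxidase, fell too, at 2.57, 1.92 and 1.79 FPKM in contact, against 4.41, 4.91 and 4.69 FPKM in transwell libraries (-1.27 ± 0.14, adjusted p = 9.05e-05). The groups of both genes were far apart, in the direction opposite to that of the fibrillar chains they act on. Loxl2 stood at 1.43, 1.34 and 0.69 FPKM in contact, against 0.63, 0.26 and 0.15 FPKM in transwell libraries (1.61 ± 0.46, adjusted p = 0.0209), which lost the call when contact replicate 1 (1.41), contact replicate 2 (1.5) or transwell replicate 3 (1.24) was left out. The Loxl2 change was 2.36 without transwell replicate 1. Loxl4 had 208 counts in contact and 3 in transwell libraries.

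Of 16 genes for collagen receptors and uptake, all were tested, 6 rose and 5 fell, with a median log2 change of -0.02. The rises include Ddr1, Ddr2 and Itga11, with 10, 22 and 24 transwell counts in all. They passed the filter on low counts through contact libraries alone. Gp6, which fell, had 14 contact counts and passed through transwell libraries alone. For these genes a call in the other direction was hardly possible. Among all genes tested, 21.4% rose and 16.1% fell. Ddr1, a receptor tyrosine kinase for collagen found mainly on epithelial cells, stood at 3.30, 3.97 and 2.25 FPKM in contact, against 0.07, 0.03 and 0.01 FPKM in transwell libraries (6.23 ± 0.39, adjusted p = 2.84e-06), and its change was 6.93 without transwell replicate 1. It was highest in contact replicate 2, as were the epithelial markers that rose and 62.8% of all genes that rose. Ddr2, the related receptor of mesenchymal cells, had 69 counts in contact and 22 in transwell libraries (1.28 ± 0.40, adjusted p = 0.0295), and leaving out any single library except contact replicate 3 ended its call, at between 0.99 and 1.33. Among all alternative fits Ddr2 lost the call in 11 of 17, DESeq2 (adjusted p = 0.0790) and the fit with no filter on low counts (adjusted p = 0.0527) included. Itga1, a collagen-binding integrin chain, stood at 1.73 ± 0.270 FPKM in contact and 0.977 ± 0.172 FPKM in transwell libraries and rose (0.71 ± 0.15, adjusted p = 0.00444). Cd44, a matrix receptor for hyaluronan and collagen, stood at 132 ± 1.24 FPKM in contact and 78.0 ± 2.45 FPKM in transwell libraries and rose (0.65 ± 0.06, adjusted p = 3.43e-05).

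The inhibitory collagen receptor Lair1 fell by 0.46 on the log2 scale (7.82 ± 0.572 FPKM in contact and 9.95 ± 0.972 FPKM in transwell libraries, adjusted p = 0.00406 in edgeR, n = 3 each). The collagen-degrading protease Ctsk fell by 0.52 (13.8 ± 1.19 FPKM in contact and 18.3 ± 0.264 FPKM in transwell libraries). Itgb1, the shared beta chain of collagen-binding integrins, stood at 124 ± 6.89 FPKM in contact and 133 ± 8.68 FPKM in transwell libraries (-0.22 ± 0.07, adjusted p = 0.0429), with overlapping FPKM. Leaving out contact replicate 1 or 2, or transwell replicate 2 or 3, ended the call of Itgb1, at between -0.23 and -0.19. Among all alternative fits it lost the call in 12 of 19, among them scaling by library totals alone (-0.10) and each limma fit on FPKM. The endocytic collagen receptor Mrc2 had 141 counts in contact and 43 in transwell libraries (1.35 ± 0.43, adjusted p = 0.0318), and leaving out contact replicate 1 or 2, or transwell replicate 3, ended its call, at between 0.98 and 1.44. Its relative Mrc1, the mannose receptor, stood at 21.3 ± 4.01 FPKM in contact and 19.1 ± 4.49 FPKM in transwell libraries (0.05 ± 0.17, adjusted p = 0.866).

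**Figure D5:**
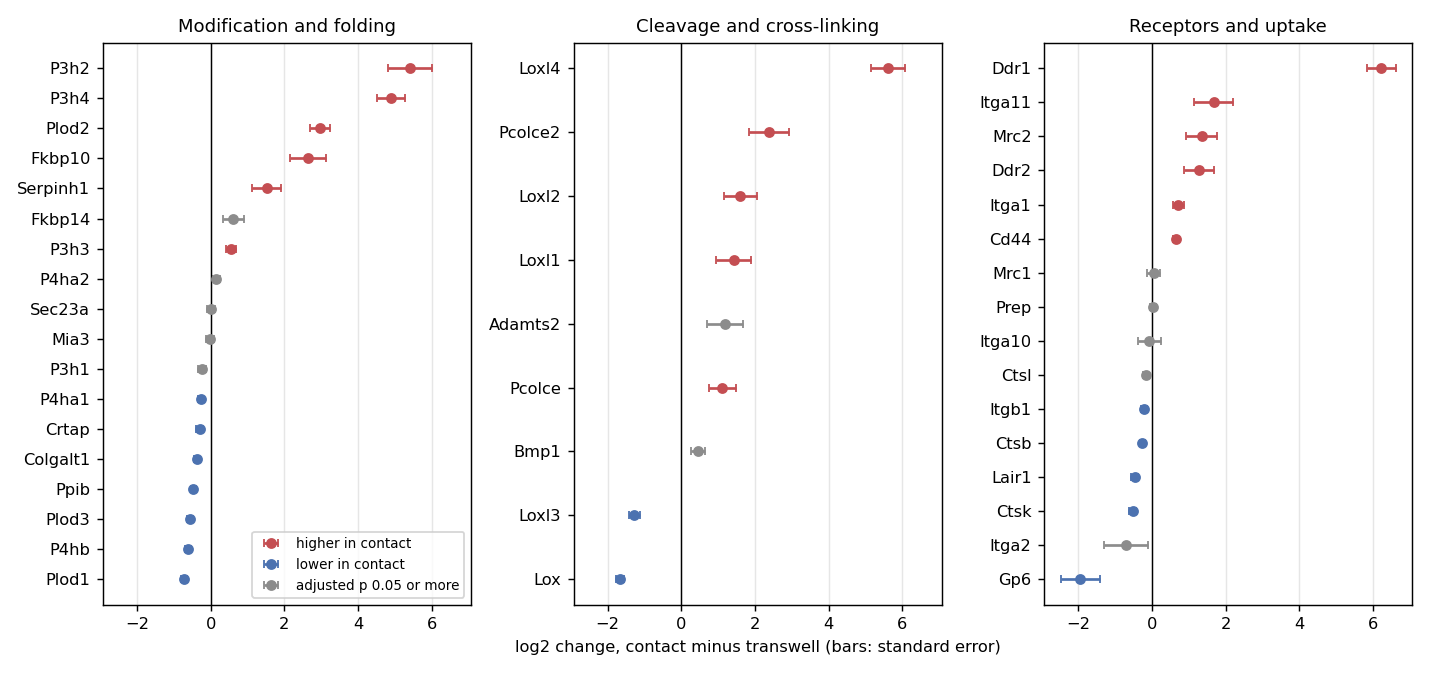
Log2 change, contact minus transwell, with standard errors, of the tested genes for collagen modification (left), cleavage and cross-linking (middle) and receptors and uptake (right). Lox at -1.67 and Loxl3 at -1.27 lie left of 0, and P3h4 at 4.90 and Ddr1 at 6.23 lie far to its right.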

How the data were processed

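The authors deposited raw read counts and FPKM per gene for each library, per the file headers. Recomputing FPKM from counts, exonic lengths and library totals gave the deposited value to within 1% for 99.9% of entries above 100 counts. GRCm38 and mm10 are named in the submitters' processing notes; the sources used here name no aligner, counter, annotation or strand setting. GENCODE M21 shares 52073 gene IDs with the deposited table but only 1472 sets of coordinates, so printed positions are those of GENCODE M21 on GRCm38, by gene ID. Promoters are RefSeq's on GRCm38.p6.

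Groups and replicate numbers come from the sample titles. Genes were filtered with filterByExpr (minimum count 10; 14113 kept), scaled with TMM and tested by quasi-likelihood in edgeR 4.0.16 under R 4.3.3 (limma 3.58.1), two-sided, adjusted over all genes. The standard error is the absolute log2 change over the square root of F. The test was checked on simulated counts that gave every gene the same dispersion (coefficient of variation 0.1225). Replicates of genes such as Col1a1 spread more widely, so that check does not cover them. The family, the lists and the tests were chosen with earlier results of these data known. All members are accounted for. From each pathway list come the up to 4 largest changes past the threshold whose higher group averaged 1 FPKM or more, beside 10 fixed genes. Loxl4 and Mrc1 were added after their values were seen. Alternatives were other scalings, filters and pseudocounts, DESeq2 1.42.0, limma on log2(FPKM + 1) or log2(FPKM + 0.1), a replicate block, and each library left out in turn. Replicates differed beyond sampling noise, with a chi-square of 6.20 or more per degree of freedom. Figures were drawn with matplotlib 3.10.9.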

Additional observations from a re-analysis of the deposited data

How the results depend on the processing

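Of the 21 collagen genes that rose, 19 were called higher in each of the alternative fits that tested them, 2 (Col4a3 and Col4a4) lost the call in limma on log2(FPKM + 1), and none changed direction. The number of rises was 21 to 22 with single libraries left out. It was 7 of 7 genes tested in limma with a mean FPKM of at least 1 over all libraries, which tests fewer genes. Col5a2, Col6a1 and Col11a2, with transwell means of 0.623, 0.56 and 0.65 FPKM, reached that mean only through contact libraries. The share over all genes in that fit was not taken, so its counts have no background beside them. Col19a1 was the only fall, and 0 fell with library totals alone, a minimum count of 30, limma with either pseudocount or on genes with a mean FPKM of at least 1, the replicate block, or replicate 1 left out of both groups, and 0 to 1 with single libraries left out; the cause was not tested. Among all genes tested, 21.4% rose and 16.1% fell. Of the 43 tested modification, cross-linking and receptor genes, 17 rose and 14 fell. Genes named above that passed the filter on low counts through a single group are among these calls. Limma on genes with a mean FPKM of at least 1 gave 7 and 9, limma on log2(FPKM + 1) gave 9 falls, and single libraries left out gave 9 to 18 rises and 9 to 13 falls. The first of these fits tests fewer genes and the last hold fewer samples; for limma on log2(FPKM + 1), which used the same genes and libraries, the cause was not tested. As a share of summed FPKM, collagen genes held 0.0123% in contact and 0.00376% in transwell libraries, a scale that divides by length. With single libraries left out, the share of counts was 0.0279 to 0.0373% in contact and 0.00800 to 0.0106% in transwell libraries. The number of measured members was 32 at 10 or more counts and 23 at 100 or more. Over all genes tested, same-numbered libraries did not deviate together (correlations across genes of -0.08, -0.45 and 0.06), so the replicate block, with 21 rises, is given here alone. The fibril-forming genes, highest in replicate 1 of both groups, differ from that: with the block the adjusted p in edgeR was 2.80e-05 for Col1a1 and 9.91e-05 for Col5a1, against 0.00796 and 0.00732 without it. Depth limits members below 30 counts, which were not measured. It also limits Col11a1, Col23a1, Col6a4 and Col27a1, with 57, 40, 31 and 30 counts in all, which were measured but not tested.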
